A study of Mus musculus with 5 samples.

Results

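Id1, Id2, Id3, Id4, Msx1, Msx2, Smad6, Smad7 and Bambi are genes known to be switched on by BMP signaling, and they were followed here through mouse cells that had all received 8 ng/ml BMP4 while FGF signaling was varied. The members were picked out by their symbols in the deposited gene list and not by a measured value, although earlier results of these data were known. They are 9 of the 32285 genes listed. They were measured in 10653 of 15375 deposited cell barcodes, those with at least 2500 detected genes and at most 10% of their UMIs (unique molecular identifiers, each standing for 1 captured RNA molecule) from mitochondrial genes. The genes did not share an order over the conditions. Id1, Id3 and Msx1 were lowest with the FGFR inhibitor and highest at 0.75 or 3 ng/ml FGF2. Msx2, Smad7 and Bambi were instead highest with the inhibitor, as were 41.7% of the 8761 genes that passed a minimum level. Id2 was highest without FGF2, and Smad6 varied by no more than 1.31-fold over all conditions.

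The cells were EpiSCs, pluripotent cells derived from the epiblast of an implanted mouse embryo, of a single wild-type line of 129 background, differentiated for 3 days in 1 µM Chi, a GSK3 inhibitor that activates Wnt signaling, together with the BMP4. Of the 5 libraries, 4 had been given FGF2 at 0, 0.75, 3 or 12 ng/ml, and the last AZD4547 at 30 nM, an inhibitor of FGF receptors (FGFRi), for which the labels name no FGF2 dose. The FGFRi library is therefore set beside 0 ng/ml FGF2 without attributing a difference to the inhibitor alone. scRNAseq had been carried out to ask how FGF dose alters the identities of the differentiating cells. One library was sequenced per condition, so no test between conditions was possible, the intervals below cover counting error only, and a difference between conditions and one between cultures cannot be told apart.

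The retained cells numbered between 1696 and 2725 per library, with a median of 24408 to 29661.5 UMIs per cell, lowest with the FGFRi. Of all barcodes, 13 occurred in more than 1 library, 7 of them among retained cells. Pou5f1 and Nanog, which mark pluripotent epiblast, were at no more than 11.3 and 2.03 CPM (counts per 1000000, the UMIs of a gene scaled to the total of its library), and the embryonic globin genes Hba-x and Hbb-bh1 had no UMI in any library, where 3 counts would amount to at most 0.0627 CPM. T, which marks the primitive streak and caudal mesoderm, was at 0.753 CPM under the FGFRi, 26.7 without FGF2 and 92.7 to 208 at the higher doses. Cdx2, a marker of caudal cells and of extraembryonic ectoderm, was at 4.64 CPM with the FGFRi and between 109 and 218 CPM elsewhere. T and Cdx2 were thus both higher throughout the FGF2 series than in the FGFRi library. How far these shifts in cell identity take part in the levels given below was not tested.

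BMP ligands bind receptor kinases at the cell surface, which phosphorylate SMAD1 and SMAD5, and these enter the nucleus with SMAD4 and activate their target genes. Id genes are among the most direct of these targets, and encode proteins that bind E proteins and so keep basic helix-loop-helix factors off DNA. Msx1 and Msx2 encode homeobox repressors found in posterior mesoderm, amnion and the borders of the neural plate. Smad6 and Smad7 encode inhibitory SMADs, and Bambi a membrane protein that resembles a type I receptor without its kinase, so that all 3 dampen the signal that induces them. In the gastrula, BMP signaling is known for its role in posterior and extraembryonic mesoderm, while FGF signaling is needed for the cells of the primitive streak to leave it.

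Promoter windows from RefSeq, which span 250 bases before to 50 after a gene's start on GRCm38.p6, were given for 6 of the 9 members (Id2, Id3, Id4, Msx1, Msx2 and Smad6), and were searched on both strands for 3 motifs. GGCGCC, a GC-rich motif bound by SMAD1 and SMAD5, occurred in 11.9% of all 32851 windows, and among the members in those of Id2 and Id4. GTCTAGAC, the palindromic SMAD-binding element, occurred in 0.213% of all windows, and among the members in that of Smad6, where it spans the start. The shorter CAGAC occurred in 49.6% of all windows, and among the members only in that of Id3, 167 and 68 bases before the start. None of the motifs contains another. The 3 stretches of 80 bases that hold the longer motifs are printed 5′ to 3′ on the strand of the gene, with the motif in capitals, since both motifs are well-known sites of SMAD proteins. That of Id2 lies at chr12:25096263-25096342 on the minus strand, with the motif 231 bases before the RefSeq start, and within the span of the gene in GENCODE (chr12:25093799-25097140). The stretch of Id4 lies at chr13:48260931-48261010 on the plus strand, with the motif 148 bases before the start, and that of Smad6 at chr9:64022056-64022135 on the minus strand, with the motif beginning 4 bases before the start. A match of letters is a description and not a bound site.
Id2: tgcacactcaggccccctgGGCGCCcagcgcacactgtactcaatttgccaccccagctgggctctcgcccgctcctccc
Id4: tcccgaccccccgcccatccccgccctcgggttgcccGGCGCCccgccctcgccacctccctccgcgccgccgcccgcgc
Smad6: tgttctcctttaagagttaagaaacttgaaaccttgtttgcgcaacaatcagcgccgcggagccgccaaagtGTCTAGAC

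Id1 (ENSMUSG00000042745, chr2:152736251-152737410 on GRCm38, plus strand) was at 64.0 CPM under the FGFRi, 164 without FGF2, 187 with 0.75 ng/ml, 193 with 3 ng/ml and 180 with 12 ng/ml. The FGFRi library thus stood apart from the 4 others, whose levels lay within 1.18-fold of each other. From the FGFRi to 0 ng/ml the level was 2.57-fold higher, with a 95% interval of 2.46 to 2.68. Between 0.75 and 3 ng/ml the levels differed by 1.03-fold (1.01 to 1.06), and their own intervals overlapped.

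Id3 (ENSMUSG00000007872, chr4:136143497-136145755, plus strand) followed a similar course at a higher level. It was at 148 CPM under the FGFRi, 248 without FGF2, 296 with 0.75 ng/ml, 249 with 3 ng/ml and 215 with 12 ng/ml. Again the FGFRi library was lowest, but here the peak was at 0.75 ng/ml, and the intervals of 0 and 3 ng/ml overlapped. The step from the FGFRi to 0 ng/ml was 1.68-fold (1.63 to 1.73), below the 2-fold that Id1 passed.

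Id2 (ENSMUSG00000020644) departed from both. Its levels were 211 CPM under the FGFRi, 281 without FGF2, 264 with 0.75 ng/ml, 180 with 3 ng/ml and 137 with 12 ng/ml, with no overlap between neighbors in this order. Without FGF2 it was therefore highest, and at 12 ng/ml it lay below the FGFRi library. From 0 to 12 ng/ml it was 2.06-fold lower (2.01 to 2.11), and from the FGFRi to 0 ng/ml 1.33-fold higher (1.30 to 1.37). Over the same range of FGF2, Id1 was 1.10-fold higher (1.07 to 1.13) and Id3 1.15-fold lower (1.13 to 1.18).

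Id4 (ENSMUSG00000021379, chr13:48261228-48266026, plus strand) was the scarce member of the family. It was at 6.98 CPM under the FGFRi, 7.20 without FGF2, 6.38 with 0.75 ng/ml, 3.00 with 3 ng/ml and 2.26 with 12 ng/ml. The first 3 differed by no more than 1.13-fold (0.989 to 1.29), followed by a step to a 2.12-fold lower level (1.80 to 2.52) between 0.75 and 3 ng/ml, and by a further 1.33-fold (1.07 to 1.65) from 3 to 12 ng/ml. With no library at 10 CPM, Id4 was left out of the counts of genes given below. A330033J07Rik and Gm49291 overlap it on the opposite strand, and whether the counting used the strand is not stated in the sources used here.

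**Figure D1:**
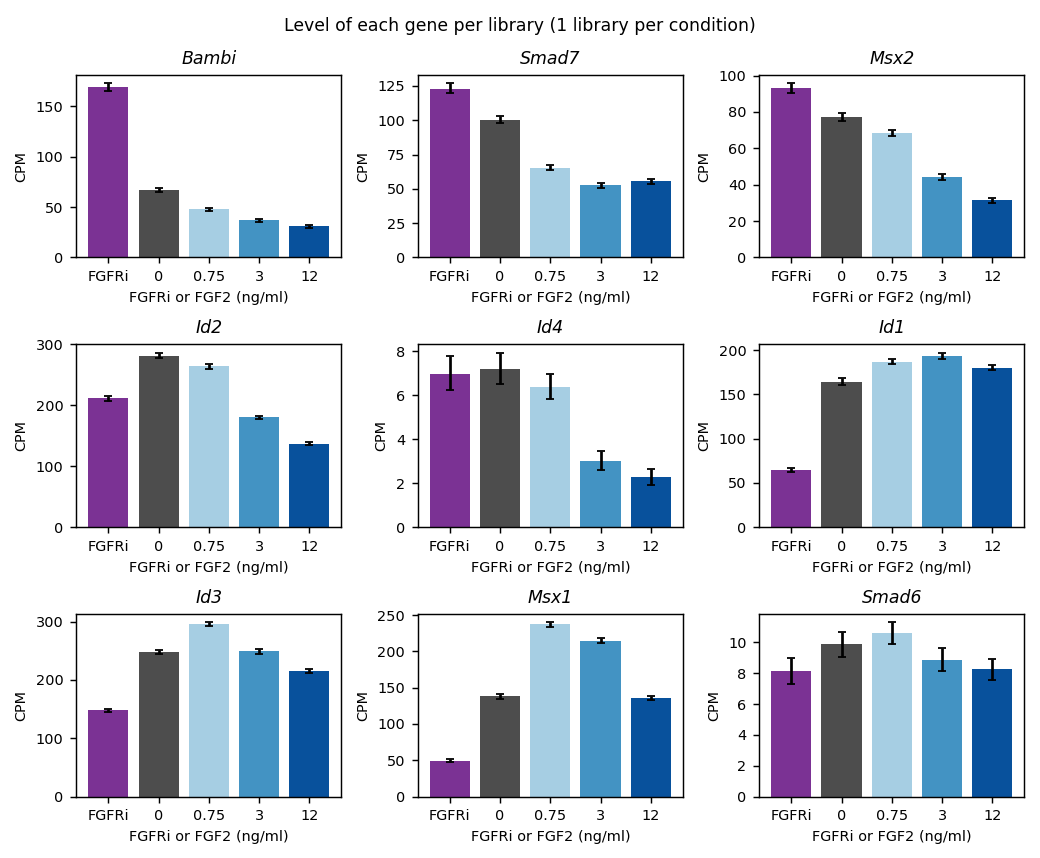
CPM of each gene in each of the 5 libraries, 1 library per condition, as bars from 0 with exact Poisson 95% intervals and an axis of its own per gene. Bambi, Smad7 and Msx2 stand highest with the FGFRi (169, 123 and 93.0 CPM), Id2 and Id4 at 0 ng/ml FGF2, and Id1, Id3, Msx1 and Smad6 at 0.75 or 3 ng/ml.

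The homeobox genes Msx1 and Msx2, which encode closely related repressors, were ordered differently. Msx1 (ENSMUSG00000048450, chr5:37820485-37824583, minus strand) was at 49.5 CPM under the FGFRi, 138 without FGF2, 237 with 0.75 ng/ml, 214 with 3 ng/ml and 136 with 12 ng/ml. Over the FGF2 doses it was higher and then lower again, with overlapping intervals at 0 and 12 ng/ml. The level at 0 ng/ml was 2.79-fold (2.67 to 2.92) that with the FGFRi, and at 0.75 ng/ml it was 4.79-fold (4.59 to 5.0), which made Msx1 the member with the widest range after Bambi.

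Msx2 (ENSMUSG00000021469, chr13:53466884-53473074, minus strand) was at 93.0 CPM under the FGFRi, 77.1 without FGF2, 68.4 with 0.75 ng/ml, 44.0 with 3 ng/ml and 31.5 with 12 ng/ml. Every library was lower than the one before it in this order, and none of the neighbors overlapped. From 0 to 12 ng/ml Msx2 was 2.45-fold lower (2.32 to 2.57), where Msx1 differed by 1.01-fold (0.984 to 1.04). With the FGFRi, Msx2 was thus the more abundant of the pair, and at each FGF2 dose Msx1 was. As each molecule is counted once at its 3′ end, these levels were compared between genes without scaling to length.

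The inhibitory SMAD genes likewise parted. Smad7 (ENSMUSG00000025880), whose product blocks the receptors of both the BMP and TGF-beta branches, was at 123 CPM under the FGFRi, 100 without FGF2, 65.3 with 0.75 ng/ml, 52.6 with 3 ng/ml and 55.4 with 12 ng/ml. It was lower at each step up to 3 ng/ml, and 1.05-fold higher (1.01 to 1.10) at 12 than at 3 ng/ml. The largest step was from 0 to 0.75 ng/ml, at 1.54-fold (1.48 to 1.60), and from 0 to 12 ng/ml the level was 1.81-fold lower (1.74 to 1.89).

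Smad6 (ENSMUSG00000036867, chr9:63953076-64022059, minus strand), whose product acts mainly on the BMP branch, was far scarcer. Its levels were 8.11 CPM under the FGFRi, 9.87 without FGF2, 10.6 with 0.75 ng/ml, 8.87 with 3 ng/ml and 8.24 with 12 ng/ml. Ranked by level, each library overlapped the next, although single steps reached 1.22-fold (1.07 to 1.39) from the FGFRi to 0 ng/ml and 1.19-fold (1.07 to 1.33) from 0.75 to 3 ng/ml. The span from lowest to highest was 1.31-fold, and only the library at 0.75 ng/ml passed 10 CPM.

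Bambi (ENSMUSG00000024232), which encodes the receptor without a kinase, had the widest range of the 9. It was at 169 CPM under the FGFRi, 67.1 without FGF2, 47.9 with 0.75 ng/ml, 37.1 with 3 ng/ml and 31.0 with 12 ng/ml. The FGFRi library stood far above the 4 others, and no neighbors overlapped. From the FGFRi to 0 ng/ml Bambi was 2.52-fold lower (2.42 to 2.62), and from 0 to 12 ng/ml a further 2.16-fold lower (2.05 to 2.28). Set against the FGFRi, the level at 12 ng/ml was 5.44-fold lower (5.19 to 5.71).

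**Figure D2:**
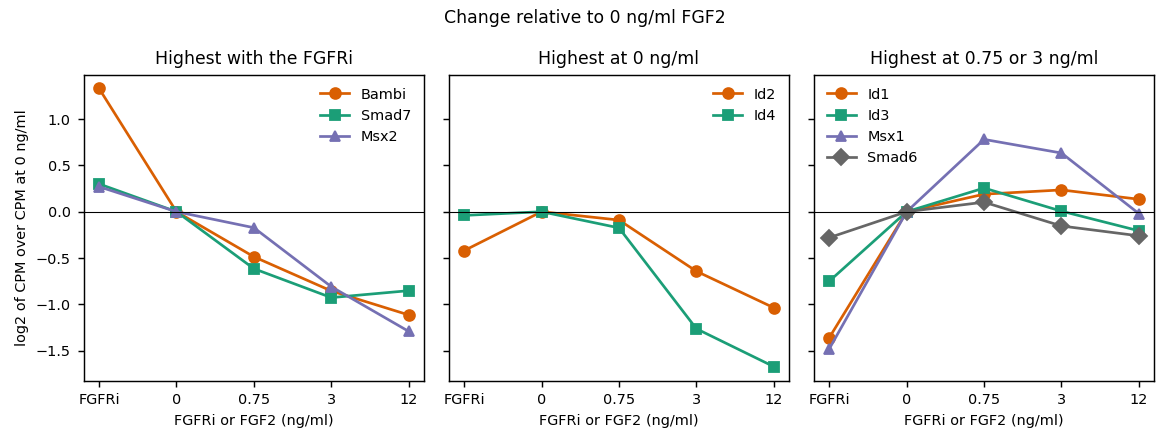
log2 of the CPM of each gene over its CPM at 0 ng/ml FGF2, for the FGFRi and the 4 FGF2 doses, with genes grouped by the library in which they were highest. With the FGFRi, Bambi lies 1.33 above its level at 0 ng/ml and Msx1 1.48 below, at 12 ng/ml Id4 lies lowest, and Smad6 stays within 0.28 of it.

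Sizes were read against all genes by a single rule of size: 10 CPM or more in one of the libraries compared, and 2-fold or more between them. From the FGFRi to 0 ng/ml, Id1 and Msx1 of the 7 members above the minimum were higher, against 2.62% of 8445 genes, and Bambi was lower, against 5.38%. From 0 to 12 ng/ml, Id2, Msx2 and Bambi of 7 were lower, against 4.04% of 8237 genes, and 0 were higher, against 1.87%. In single steps of FGF2 no member passed the rule. The corresponding shares of all genes were 0.308% higher and 1.41% lower from 0 to 0.75 ng/ml, 0.336% and 0.523% from 0.75 to 3 ng/ml, and 0.0631% and 0.0252% from 3 to 12 ng/ml. The median ratio of the members above the minimum, as a difference of log2(CPM + 1), was 0.41 from the FGFRi to 0 ng/ml and -0.85 from 0 to 12 ng/ml, beside 0.00 and 0.01 over all genes above it.

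The library in which a gene was highest was counted for the 8 members that reached 10 CPM in any library. Bambi, Smad7 and Msx2 were highest with the FGFRi, as were 41.7% of 8761 genes. Id2 alone was highest at 0 ng/ml, as were 7.67% of genes. Id3, Msx1 and Smad6 were highest at 0.75 ng/ml, beside 9.44% of genes, and Id1 at 3 ng/ml, beside 19.0%. None of the 8 was highest at 12 ng/ml, where 22.1% of genes were. Id2, Msx2 and Bambi were lower at each step from 0 over 0.75 and 3 to 12 ng/ml, as were 15.3% of genes, and 0 members were higher at each step, beside 16.3%. With each cell thinned to 10000 UMIs, Smad6 was highest at 0 rather than 0.75 ng/ml, and Smad6 and Smad7 joined the 3 that were lower at each step. The last step of Smad7 was then close to a tie, with a mean of 0.499 UMIs per cell at both 3 and 12 ng/ml.

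The levels came from different shares of the cells. To remove the difference in depth, each cell was thinned to 10000 UMIs, which left out between 9 and 39 shallower cells per library. Id1 then had at least 1 UMI in 33.3% of cells with the FGFRi (exact binomial 95% interval 31.0 to 35.6), and in 59.3%, 62.3%, 66.0% and 64.6% over the rising doses of FGF2. Without thinning these shares were 49.9%, 76.9%, 80.4%, 82.7% and 84.0%. Id1 was thus found in fewer cells with the FGFRi, as well as being lower in total.

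Msx1 was found in 24.5% of thinned cells with the FGFRi (22.4 to 26.6), and in 50%, 66.0%, 65.2% and 53.0% over the FGF2 doses, against 35.2%, 66.3%, 80.7%, 81.8% and 70.2% without thinning. With the FGFRi, the 10% of cells with the most Msx1 held 68.4% of its UMIs, compared with 37.7% at 0.75 ng/ml. This share also depends on the mean over all thinned cells, which was 0.559 UMIs with the FGFRi and 2.46 at 0.75 ng/ml. It was therefore not read as a difference in unevenness. In the cells that had any, the mean was 2.28 UMIs with the FGFRi and 3.72 at 0.75 ng/ml. Both fewer cells with a UMI and fewer UMIs in such cells therefore accompanied the lower level, as a lower mean count alone would also give.

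Bambi ran the other way, with 59.4% of thinned cells having a UMI with the FGFRi (57.0 to 61.8), and 38.5%, 33.9%, 28.3% and 24.0% over the FGF2 doses. Unthinned, its shares were 76.3%, 65.2%, 58.1%, 53.4% and 48.2%. In the FGFRi library the mean in cells with a UMI was 3.05, and 1.30 at 12 ng/ml. The variance of Bambi over its mean was 3.25 with the FGFRi and between 1.34 and 1.86 elsewhere, where a Poisson count would give a ratio of unity. Its mean over all thinned cells was 1.81 UMIs with the FGFRi and 0.311 to 0.674 elsewhere. As the ratio also depends on the mean, the libraries were not ranked by unevenness. With the FGFRi, Bambi was found in 59.4% of cells where a Poisson count of the same mean would give 83.7%. Its molecules were thus spread unevenly over the cells. This was not particular to Bambi. In the same library Id1 was found in 33.3% against 51.7%, Id2 in 65.0% against 90.8%, Id3 in 53.9% against 78.6% and Msx1 in 24.5% against 42.8%. For Msx2 the shares were 55.1% against 63.2%, and for Smad7 60.0% against 69.4%.

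The variance over mean of Smad7 and Msx2 was below that of Bambi with the FGFRi and at 0 ng/ml, and above it at 3 and 12 ng/ml. Smad7 was found in 60.0% of thinned cells with the FGFRi and in 49.8%, 39.5%, 34.1% and 34.1% over the doses, with variance over mean of 1.48 to 1.67. Msx2 was found in 55.1%, 42.9%, 41.1%, 29.7% and 21.6% of cells in the same order, with variance over mean of 1.44 to 1.80. Both ranges lay below that of Id1, Id2, Id3 and Msx1, in which variance over mean lay between 2.41 and 4.07. The ratio also depends on the mean count, which differed between the genes, so that it does not rank them by unevenness.

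Id2 and Id3 were found in most cells of each library. Id2 had a UMI in 65.0% of thinned cells with the FGFRi and in 77.3%, 75.9%, 66.3% and 59.5% over the doses, and Id3 in 53.9%, 71.1%, 75.5%, 72.8% and 71.0%. Smad6 was found in 7.88% to 10.2% of cells, and its variance over mean of 1.05 to 1.09 was close to that of counting alone. At its mean of 0.0855 to 0.112 UMIs per cell, this ratio says little about evenness. Id4 was found in 6.32% of cells under the FGFRi, and in 7.09%, 6.25%, 2.84% and 1.96% over the rising doses. The median cell held UMIs of 4 of the 9 genes in each library but that of 12 ng/ml, where it held 3, and cells with none of them made up 0.715% to 2.63%.

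No cell group of these cultures is known to lack the members, so that the share from free RNA was not measured, and the shares are those of cells with a UMI rather than of cells expressing a gene. The lowest share in any marker group of at least 50 cells was 50.7% for Id2, 48.3% for Id3, 30.2% for Smad7, 25.7% for Id1, 19.4% for Bambi, 18.8% for Msx2, 12.6% for Msx1 and 4.19% for Smad6, with medians of 25495 to 29456 UMIs per cell. Id4 was found in 0 of 68 cells with Tbx6 at 0 ng/ml (median 29341.5 UMIs), for which the exact upper limit is 5.28%, and in 10.5% of 564 cells with Hand1 in the same library (median 32773.5 UMIs). The low shares of Smad6 and Id4 were not read as expression in a set of cells.

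**Figure D3:**
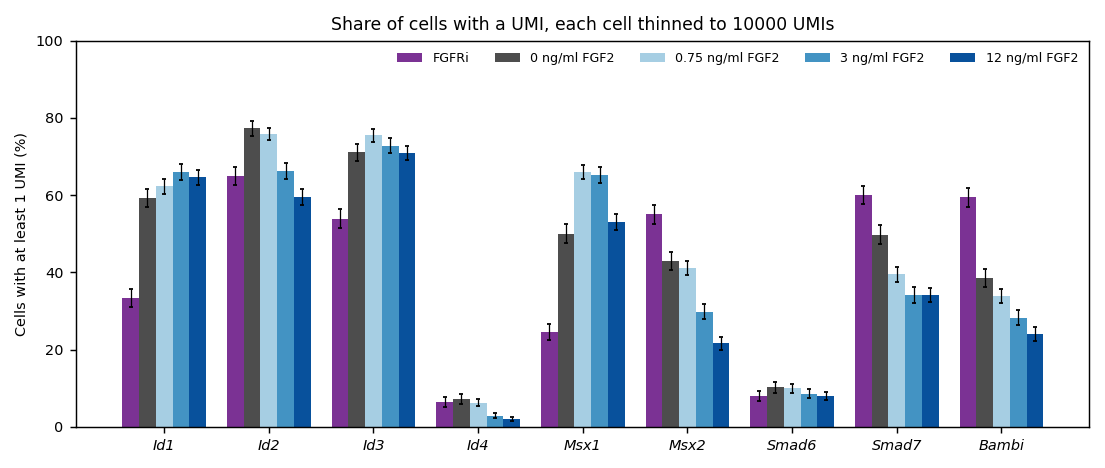
Percentage of cells with at least 1 UMI of each gene after each cell was thinned to 10000 UMIs, for the FGFRi and the 4 FGF2 doses, with exact binomial 95% intervals. Bambi, Smad7 and Msx2 were found in most cells with the FGFRi (59.4%, 60.0% and 55.1%), where Id1 and Msx1 were found in 33.3% and 24.5%.

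Epithelial and mesenchymal cells were separated within each library by the cadherins they expressed. Cdh1 encodes E-cadherin of epithelial cells and Cdh2 encodes N-cadherin, which mesodermal cells take up as they leave the epithelium. Cells with UMIs of Cdh1 but not Cdh2 in the thinned counts numbered 557 with the FGFRi and 650, 907, 396 and 360 at 0, 0.75, 3 and 12 ng/ml, and cells with Cdh2 but not Cdh1 569, 418, 915, 1046 and 1296. Since a cell can miss the UMIs of a gene it expresses, these groups are enriched for either type and are not pure. Their shares differed between libraries, so that the members were also compared within them. The kinds of cell within a group can still differ between libraries.

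With the FGFRi, all 9 genes were lower in Cdh1-only than in Cdh2-only cells. Of the 8 with at least 10 CPM in either group, 0 were higher in Cdh1-only cells, against 51.3% of genes. At 0.75 ng/ml the reverse held, with 8 of 8 higher in Cdh1-only cells, against 48.7% of genes. At 0 ng/ml 4 of 7 were higher (48.6% of genes), at 3 ng/ml 7 of 8 (47.7%) and at 12 ng/ml 5 of 7 (47.9%). These counts go by direction alone. Among the genes counted as higher, the interval included no difference for Smad6 at 0.75 and 3 ng/ml, Id3 at 3 ng/ml, and Id2 and Msx2 at 12 ng/ml. The same held for Id1 at 0 ng/ml and Id3 at 12 ng/ml, which were counted as lower. Few of the differences reached 2-fold, and among genes with 10 CPM only that of Msx1 with the FGFRi did.

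Msx1 differed most. In Cdh1-only cells it was at 18.6 CPM under the FGFRi and 114, 252, 292 and 185 CPM over the rising doses, and in Cdh2-only cells at 78.6, 154, 192, 169 and 111 CPM. With the FGFRi it was 4.22-fold lower in Cdh1-only cells (3.72 to 4.79), and at 3 ng/ml 1.72-fold higher (1.65 to 1.80), so that the cell group with the higher level switched between 0 and 0.75 ng/ml. From the FGFRi to 0 ng/ml the level was 6.12-fold higher in Cdh1-only cells (5.44 to 6.91) and 1.95-fold higher in Cdh2-only cells (1.82 to 2.10). From 0 to 12 ng/ml it was 1.62-fold higher in the former (1.53 to 1.71) and 1.39-fold lower in the latter (1.32 to 1.46), although the level over all cells was almost the same in both libraries.

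For Bambi the larger step from the FGFRi to 0 ng/ml was instead in Cdh2-only cells. Like Msx1, Bambi was lower in Cdh1-only cells with the FGFRi. Unlike Msx1, Bambi was higher in them at each FGF2 dose, by 1.54-fold (1.41 to 1.69) at 0 ng/ml. In Cdh2-only cells it was at 214 CPM under the FGFRi and 49.4, 32.2, 30.0 and 29.2 CPM over the rising doses, and in Cdh1-only cells at 129, 76.1, 59.6, 55.1 and 38.4 CPM. From the FGFRi to 0 ng/ml it was thus 4.33-fold lower in Cdh2-only cells (3.99 to 4.71) and 1.70-fold lower in Cdh1-only cells (1.60 to 1.81). Beyond 0.75 ng/ml it hardly differed in Cdh2-only cells, whereas in Cdh1-only cells it was a further 1.43-fold lower (1.27 to 1.62) from 3 to 12 ng/ml.

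Smad7 in Cdh2-only cells was at 135 CPM under the FGFRi and 73.5, 47.8, 46.4 and 44.3 CPM over the rising doses. In Cdh1-only cells it was at 113, 115, 83.5, 68.5 and 87.8 CPM in the same order. At 0 ng/ml, against the FGFRi, it was 1.83-fold lower (1.70 to 1.98) in Cdh2-only cells and 1.25-fold lower (1.16 to 1.35) in cells with neither cadherin, while in Cdh1-only cells the ratio was 1.02 (0.959 to 1.08). Msx2 was 1.91-fold lower (1.75 to 2.09) in Cdh2-only cells, 1.22-fold lower (1.13 to 1.32) in cells with neither, and 1.07-fold higher (0.995 to 1.14) in Cdh1-only cells. For Id1 and Id3 the step from the FGFRi to 0 ng/ml was larger in Cdh1-only cells, at 3.38-fold (3.13 to 3.66) and 2.03-fold (1.93 to 2.14), than in Cdh2-only cells, at 1.98-fold (1.84 to 2.12) and 1.43-fold (1.37 to 1.51).

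**Figure D4:**
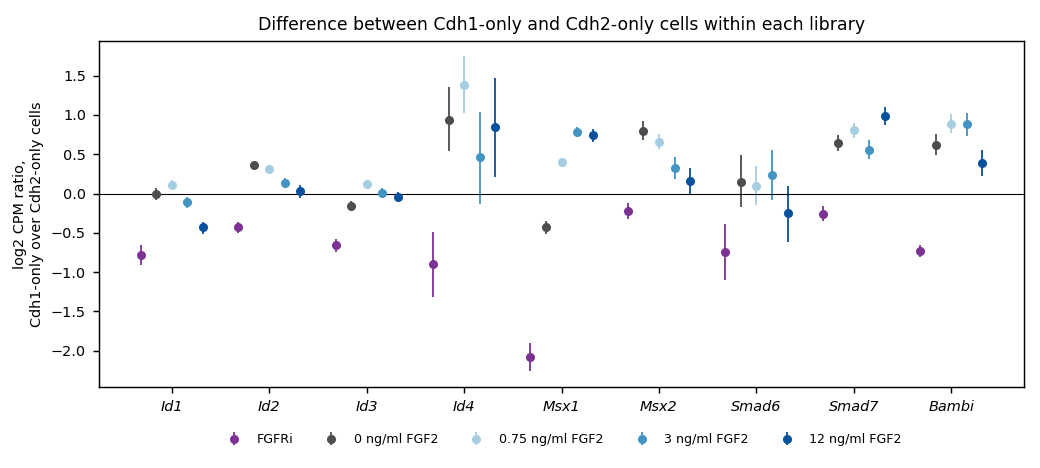
log2 ratio of the CPM in cells with Cdh1 but not Cdh2 over that in cells with Cdh2 but not Cdh1, for each gene and library, with exact 95% intervals of counting error. All 9 genes lie below 0 with the FGFRi, Msx1 lowest at -2.08, and all 9 lie above 0 at 0.75 ng/ml FGF2, where the interval of Smad6 spans 0.

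Cells were also grouped by UMIs of Hand1, which marks extraembryonic and lateral mesoderm, and of Cdx2. Smad7 was higher in cells with Hand1 than in cells without it in each library, at 145 against 113 CPM under the FGFRi, and 134 against 80.6, 88.5 against 59.2, 74.6 against 47.7 and 74.2 against 51.6 CPM over the rising doses. Msx2 was also higher with Hand1 in each library, by 1.11-fold (1.04 to 1.18) with the FGFRi and up to 1.85-fold (1.68 to 2.03) at 12 ng/ml. So was Id2, by 1.15-fold (1.09 to 1.21) at 12 ng/ml and up to 1.42-fold (1.38 to 1.46) at 0.75 ng/ml. These groups held 524 cells with Hand1 in the FGFRi library and 564, 527, 366 and 380 over the doses. Id1 was lower in cells with Hand1 with the FGFRi, at 60.2 against 66.0 CPM, and higher at each FGF2 dose, at 259 against 168 CPM at 0.75 ng/ml.

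Msx1 went with Cdx2. In cells with Cdx2 it was at 142 CPM under the FGFRi and 188, 262, 232 and 154 CPM over the rising doses, and in cells without it at 45.7, 87.3, 161, 138 and 83.1 CPM. The ratio was largest with the FGFRi, at 3.10-fold (2.71 to 3.54) over 72 cells with Cdx2, and smallest at 0.75 ng/ml, at 1.63-fold (1.57 to 1.69). Cells with Cdx2 made up 4.33% with the FGFRi and 52.4% at 0 ng/ml. Between these libraries Msx1 was 1.33-fold higher (1.17 to 1.51) in cells with Cdx2 and 1.91-fold higher (1.80 to 2.03) in cells without it. Over all cells the step was 2.79-fold, and the part of cell composition in it was not tested. Smad7 was lower in cells with Cdx2 in each library, most at 0 ng/ml, where it was at 71.6 against 129 CPM. In cells with Tbx6, a marker of presomitic mesoderm, Msx1 was lower than in cells without it at each FGF2 dose, by 1.70-fold (1.62 to 1.79) at 3 ng/ml. Id2, Smad7 and Bambi were also lower in cells with Tbx6 at each dose, so that this was not particular to Msx1. The 3 FGFRi-treated cells with Tbx6 were too few to compare.

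Between cells of a library, Id1 and Id3 went together most closely at each FGF2 dose, and Id1 and Id2 with the FGFRi. Spearman's rho over thinned cells was 0.34 with the FGFRi and 0.45, 0.39, 0.38 and 0.34 over the FGF2 doses, over 1662, 1679, 2706, 2115 and 2397 cells. For Id1 and Id2 it was 0.36 with the FGFRi and 0.36, 0.29, 0.22 and 0.22 over the doses. The Msx pair, by contrast, gave 0.16 with the FGFRi and 0.06 to 0.18 over the doses, and Smad7 with Bambi 0.00 to 0.07. Cells of a library share 1 culture and the counts are sparse, so that these are descriptions, and the values near 0 were not read as a relation or its absence.

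Likeness over the 5 libraries was measured as the root mean square difference of mean-centered log2(CPM + 1). The closest pair of members was Id4 and Msx2, at 0.131, and the most distant Msx1 and Bambi, at 1.58, with Msx1 and Msx2 at 1.16. Among 3514 genes with at least 50 CPM in any library, the 3 most like Id1 were Cdt1 (0.0401), Mcm7 and Clspn, which act in DNA replication. Most like Msx1 were Cdca7 (0.192), Lin28a and Hist1h2ae, and most like Id3 were Rps6ka1 (0.0764), Hat1 and Pitrm1. The profile of Bambi was closest to those of Foxp1 (0.0537), Nrep and Tpm2, that of Smad7 to Ubqln2 (0.0402), Elovl1 and Rhou, and that of Msx2 to Dag1 (0.104), Klf7 and Tshz1. For Id2 the nearest were Slc2a3 (0.105), Apoe and Cldn6, and for the nearly level Smad6 Mkrn1 (0.0326), Tomm7 and Fmc1. With 5 values per gene, many genes lie close to any profile, and a small difference is no sign of shared function.

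The remaining genes of the pathway were counted by the same rule of size. The list of ligands held 16 genes, including Bmp1, which encodes a protease although the authors count it with the ligands. Of the 16, 5 had at least 10 CPM in either library in each comparison, Bmp1 among them. From the FGFRi to 0 ng/ml Gdf11 was higher, beside 2.62% of all genes, and from 0 to 12 ng/ml Bmp2 was lower, beside 4.04%. Bmp2, which encodes a ligand of the same receptors as BMP4, was at 92.5 CPM under the FGFRi and 52.7, 26.2, 13.3 and 10.3 CPM over the rising doses. It was the one ligand past the rule in a single FGF2 step, from 0 to 0.75 ng/ml (2.01-fold lower, 1.90 to 2.13), beside 1.41% of all genes. Gdf11, a ligand of the activin branch, was at 9.45 CPM with the FGFRi and 25 to 32.5 CPM elsewhere. Endogenous Bmp4 was at 86.5 CPM under the FGFRi and 76.2, 58.1, 44.2 and 42.3 CPM over the rising doses. Bmp2 and Bmp4 were thus highest with the FGFRi, as Bambi, Smad7 and Msx2 were, and as were 41.7% of 8761 genes. Gdf11 and Bmp7 were not. Bmp7 was at 24.1 CPM under the FGFRi and 23.2, 26.4, 23.2 and 20.4 CPM over the rising doses. Id1, Id3 and Msx1 were instead lowest where Bmp2 was highest.

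Receptors, the signaling SMADs with their regulators, and E proteins did not pass the rule in any of the 5 comparisons. Of all genes, 0.0252% to 5.38% passed it per comparison and direction, so that this tells little about lists of this length. Between 6 and 7 of 12 receptor genes, 12 and 14 of 15 SMAD-related genes and all 3 E protein genes reached 10 CPM. The highest of each in any library were Bmpr2, Skil and Tcf4, all through their level with the FGFRi. Bmpr2, a type II receptor, was at 82.0 CPM with the FGFRi and 32.5 to 41.7 CPM elsewhere. The co-repressor Skil was at 115 CPM with the FGFRi and 51.2 to 63.3 CPM elsewhere. Tcf4, an E protein that Id proteins bind, was at 191 CPM with the FGFRi and 145 to 163 CPM elsewhere. At each FGF2 dose Acvr2b and Bmpr1a were above Bmpr2, and Smad4 was above Skil. Acvr2b was at 37.3 CPM with the FGFRi and 59.6 to 73.4 CPM elsewhere, and Bmpr1a at 61.1 and 49.2 to 55.4 CPM. Smad4 was at 112 CPM with the FGFRi and 96.7 to 104 CPM elsewhere. Set against the FGFRi, Bmpr2 was 2.52-fold lower (2.39 to 2.66) and Skil 2.23-fold lower (2.13 to 2.33) at 3 ng/ml. Smad1 and Smad5, which carry the BMP signal, were at 28.3 to 47.3 CPM.

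Extracellular antagonists, which bind BMP or related ligands and keep them from their receptors, were mostly higher with the FGFRi. Of 5 with at least 10 CPM, 4 were lower at 0 ng/ml than with the FGFRi, beside 5.38% of all genes. Nog (noggin) was at 44.0 CPM under the FGFRi and 13.0, 7.59, 5.62 and 4.66 CPM over the rising doses, Nbl1 at 25.9 CPM and then 8.78 to 1.63 CPM, and Sostdc1 at 22.3 CPM and then 1.32 to 0.113 CPM. Fstl1, the most abundant of the list with the FGFRi, was at 175 CPM there and 49.7 to 63.9 CPM elsewhere. Fst (follistatin), which binds activins foremost, ran the other way, at 8.53 CPM under the FGFRi and 5.81, 18.8, 64.3 and 70.2 CPM over the rising doses, a 12.1-fold difference (10.8 to 13.5) from 0 to 12 ng/ml.

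Other genes known to respond to BMP were chosen as a list of 20, of which 8 reached 10 CPM between 0 and 12 ng/ml. Of these, 7 were lower at 12 ng/ml, beside 4.04% of all genes, with a median difference of log2(CPM + 1) of -1.35. Tfap2a, which marks surface ectoderm and neural plate border, was at 93.3 CPM under the FGFRi and 47.6, 36.1, 11.8 and 6.39 CPM over the rising doses, the order of Bambi and Msx2. Hand1, Gata2 and Tfap2c went instead with Id2 or Msx1 in being lower with the FGFRi than at 0 ng/ml. Tfap2c was at 20.8 CPM under the FGFRi and 44.6, 46.9, 30.4 and 19.9 CPM over the rising doses. Hand1 was at 63.5 CPM under the FGFRi, 85.7 without FGF2 and 32.7 with 12 ng/ml, and Gata2, a mesoderm and blood factor, at 5.23, 11.9 and 1.64 CPM. Gata3 was at 15.5 CPM under the FGFRi, 11.8 without FGF2 and 4.10 with 12 ng/ml, and Dlx3 at 15.6, 15.8 and 2.88 CPM, while Dlx5 was highest at 0.75 ng/ml (15.4 CPM), as Msx1 was. From the FGFRi to 0 ng/ml, Gata2, Dlx5, Tfap2c and Sall4 were higher, 4 of 8, beside 2.62% of all genes. Sall4, a factor of pluripotent and caudal cells, had the highest level of the list in any library. It was at 36.5 CPM with the FGFRi, below Tfap2a, and at 92.2 to 156 CPM over the doses.

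**Figure D5:**
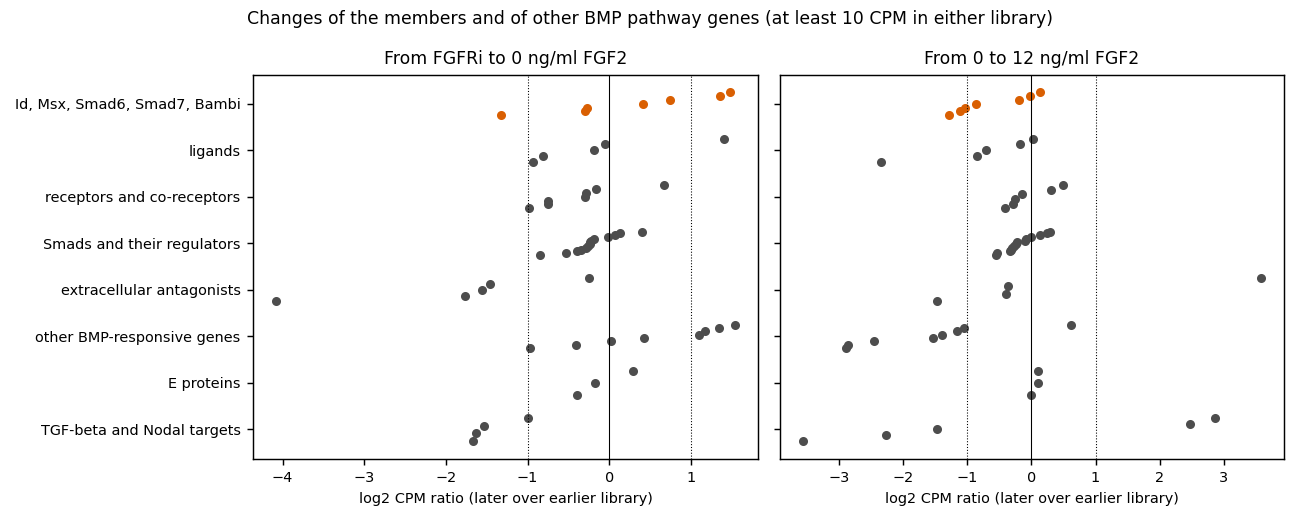
log2 CPM ratio of each gene with at least 10 CPM in either library, from the FGFRi to 0 ng/ml FGF2 (left) and from 0 to 12 ng/ml (right), for the 9 genes (orange) and for lists of BMP and TGF-beta pathway genes (grey), with dotted lines at 2-fold. Receptors, SMADs and E proteins lie within the lines, and 7 of 8 other BMP-responsive genes lie left of the lower line from 0 to 12 ng/ml.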

How the data were processed

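Libraries had been prepared from dissociated cells with the 10x Genomics 3′ kit, version 3.1 chemistry. The authors aligned the reads to mm10 with the 10x reference built on GENCODE vM23/Ensembl 98, and deposited raw UMI counts per gene and barcode for the barcodes called as cells, with no normalization. The matrix headers name Cell Ranger 5.0.1, and the methods an earlier version. Doublets were not filtered out here, and the methods do not mention such a step.

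Here, barcodes with at least 2500 genes and at most 10% mt- UMIs were kept (10653 cells), which held 95.3% to 97.3% of the UMIs of a library (47824660 to 81538748 UMIs). Counts were summed per library and divided by the library's total to CPM, with exact Poisson 95% intervals, and ratios have exact conditional intervals with no pseudocount. A library without a UMI would have been set to 3 counts, and was not met among the members. Shares of cells have exact binomial intervals. Thinning used seed 1. UMIs remove most PCR copies, but intervals cover counting error only. They leave out the spread between cells, for which variance over mean reached 4.07, and are too narrow by that measure. Genes named outside the 9 were those of the pathway lists past the rule of size (10 CPM and 2-fold) in any comparison, the highest of each list in any library, and the 3 genes most like each member. Endogenous Bmp4, Smad1 and Smad5 were named beside these because of the signal they carry, after their values had been seen. Acvr2b, Bmpr1a, Smad4, Bmp1 and Bmp7 were also named after their values had been seen. The members and lists were chosen with earlier results of these data known. A gene of the list of TGF-beta and Nodal targets is not reported here. Positions are from GENCODE vM21, in which 32158 of 32285 identifiers were matched, and promoter sequences from RefSeq.

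The rule of size and the ratio intervals were tested on simulated Poisson sums with known ratios, and thinning for keeping the mean. These sums hold no spread between cells. Cell groups, shares of cells, correlations and likeness were not tested on simulated data. Alternatives covered the filters on cells, equal weight per cell, thinning, TMM (edgeR 4.0.16 in R 4.3.3) and median-of-ratios scaling, the genes in the total, the deepest 5% of cells, the CPM minimum and the fold. Python 3.11.15, NumPy 2.4.6, SciPy 1.17.1, pandas 2.3.3 and Matplotlib 3.10.9 were used.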

Additional observations from a re-analysis of the deposited data

How the results depend on the processing

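With 1 library per condition, no replicate could be left out and no spread between cultures is known. No paired analysis was possible because no condition has more than 1 library and no test was run. Leaving out the filter on cells, keeping cells with at most 5% mt- UMIs, weighting cells equally, TMM or median-of-ratios scaling, leaving mt- and ribosomal genes out of the total, and leaving out the deepest 5% of cells changed none of the 17 counts of members by over 1.5 times. Leaving mt- and ribosomal genes out moved the median log2 ratio from the FGFRi to 0 ng/ml, over the 7073 genes with at least 10 CPM in every library, from 0.03 to 0.10. Thinning each cell to 10000 UMIs gave 2 members highest at 0 ng/ml (1 without thinning) and 5 lower at each FGF2 step (3 without). With a fold of 1.5, 1 member (Msx1) was higher and 1 (Smad7) lower from 0 to 0.75 ng/ml, 1 (Msx2) lower from 0.75 to 3 ng/ml and 1 (Msx1) lower from 3 to 12 ng/ml, where the 2-fold rule gave 0 each time. Id3 from the FGFRi to 0 ng/ml (1.68-fold) and Smad7 from 0 to 12 ng/ml (1.81-fold) were also past 1.5-fold. With a minimum of 1 CPM, 1 member (Id4) was lower from 0.75 to 3 ng/ml, against 0. Id4 was then also past the rule from 0 to 12 ng/ml (3.18-fold). The share of all genes past these looser settings is not given, so that these counts are not read as a result about the members. No ratio past the rule changed direction under any of these alternatives, nor when cell groups were set without thinning or by 2 UMIs of a marker. The sizes did depend on these settings. With groups by 2 UMIs, 79 log2 ratios of the cell groups were scored as moved and 110 as the same, and without thinning 75 and 132. Between libraries, thinning each cell to 10000 UMIs gave 19 log2 ratios scored as moved and 26 as the same. The share of cells with a UMI moved beyond its interval in 45 of 45 values without thinning, since it depends on depth. Depth limits Id4 and Smad6, whose totals were 160 to 520 and 388 to 864 UMIs per library.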

Other observations

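The list of TGF-beta and Nodal targets, a neighboring branch of signaling that SMAD7 also inhibits, differed in both directions. Pmepa1, which encodes an inhibitor of that branch, was at 137 CPM with the FGFRi and 47.6, 17.9, 11.1 and 17.1 CPM over the FGF2 doses. Tgfbi, which encodes a secreted matrix protein, was at 77.4 CPM with the FGFRi and 24.3, 3.42, 1.90 and 2.05 CPM over the doses, and Ccn2, a matrix-associated factor, at 31.0 CPM and then 10.1, 1.74, 0.635 and 2.08 CPM. All 3 were lower past the 2-fold rule both from the FGFRi to 0 ng/ml, beside 5.38% of all genes, and from 0 to 0.75 ng/ml, beside 1.41%. Of the 9 BMP targets, 7 were above the minimum from the FGFRi to 0 ng/ml, and none of these passed the rule in both steps. The share of all genes that passed in both is not given, and with so few genes this tells little. Lefty1 and Lefty2, Nodal antagonists of the early embryo, ran the other way, Lefty1 at 0.418 CPM with the FGFRi and 2.90, 8.38, 18.6 and 21.2 CPM over the doses, and Lefty2 at 0.502, 2.13, 6.75, 10.9 and 11.9 CPM. Smad7 and Pmepa1 were thus both lowest at 3 ng/ml. For Smad7, however, the levels at 3 and 12 ng/ml differed by only 1.05-fold (1.01 to 1.10), and their own intervals overlapped. With each cell thinned to 10000 UMIs, its mean was 0.499 UMIs in both libraries.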
